A study of Rattus norvegicus with 10 samples.

Results

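The genes described here encode the nuclear-encoded parts of the mitochondrial respiratory chain and of ATP synthase. They were taken as every non-control probe of the array whose gene name begins with Nduf, Sdha to Sdhd, Uqcr, Cox4 to Cox8 or Atp5, or is Cyc1. This rule uses names only, but it was chosen with earlier results of these data known. The rule found 84 genes, on 106 of the 41012 non-control probes of the array (35469 gene names), and no probe carried the name Cyc1. RNA came from the milk whey of 3 F344/N rat dams, each milked at d 2, d 9 and d 16 postpartum after an oxytocin injection, and from serum drawn from those animals at d 21. Whey is milk from which cells, fat and casein were spun out, and d 2 whey is colostrum. Each whey sample had its own one-colour array, while the serum RNA of the 3 dams was combined on 1 array, so the serum value has no replicate. Each day was thus represented by 3 arrays of the same 3 dams. The p-values below measure the spread between the arrays within a day, which holds differences of animal and of array together. Unless a dam block is named, the pairing by dam was not used.

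Respiration passes electrons from NADH and succinate to oxygen. Complex I (NADH dehydrogenase, the Nduf genes) and complex II (succinate dehydrogenase, the Sdh genes) feed electrons to ubiquinone, complex III (the Uqcr genes) hands them to cytochrome c, and complex IV (cytochrome c oxidase, the Cox genes) gives them to oxygen. Complexes I, III and IV pump protons, and complex V (ATP synthase, the Atp5 genes) uses the proton gradient to make ATP. Some of these subunits carry the catalytic centres and others, called accessory or supernumerary, surround them. The catalytic subunits made inside the mitochondrion are encoded by its own genome, and no probe for them was matched here. Lactating mammary epithelium is rich in mitochondria, whereas whey as prepared here is a cell-free fluid. In such bulk RNA, fewer cells of a type behind a signal and less RNA from each of them cannot be told apart.

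Promoters of 72 of the 84 genes were matched in RefSeq (assembly GRCr8), and 5 are printed as the 250 bases before the start of genes whose signal changed most clearly or whose window held a searched motif. Capitals mark exact matches, on either strand, to the motifs of factors long associated with respiratory chain genes, namely NRF-1, GABPA and YY1. The NRF-1 and YY1 motifs were searched as single strings of 10 bases (the NRF-1 string is the one in capitals in the Atp5o window), and GABPA as CCGGAAGT. The windows are chr9:1637364-1637613 (plus strand) for Ndufa11, chr11:44657484-44657733 (minus strand) for Atp5o, chr9:72073606-72073855 (minus strand) for Ndufs1, chr7:1099808-1100057 (plus strand) for Atp5b and chrX:121293556-121293805 (minus strand) for Ndufa1.
Ndufa11: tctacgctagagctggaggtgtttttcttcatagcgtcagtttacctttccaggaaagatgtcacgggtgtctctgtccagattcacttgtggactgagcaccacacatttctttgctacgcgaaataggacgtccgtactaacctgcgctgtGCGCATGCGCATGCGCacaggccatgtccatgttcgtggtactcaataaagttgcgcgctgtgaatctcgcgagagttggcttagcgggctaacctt
Atp5o: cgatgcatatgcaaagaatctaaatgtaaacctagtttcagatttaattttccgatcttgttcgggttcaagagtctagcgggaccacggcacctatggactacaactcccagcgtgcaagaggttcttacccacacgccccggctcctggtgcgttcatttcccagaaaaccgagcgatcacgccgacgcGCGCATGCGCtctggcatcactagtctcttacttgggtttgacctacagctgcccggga
Ndufs1: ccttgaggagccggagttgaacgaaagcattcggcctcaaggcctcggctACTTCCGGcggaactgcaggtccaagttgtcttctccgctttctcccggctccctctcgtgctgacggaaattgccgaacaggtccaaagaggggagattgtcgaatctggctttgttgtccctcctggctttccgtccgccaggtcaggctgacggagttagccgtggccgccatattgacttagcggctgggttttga
Atp5b: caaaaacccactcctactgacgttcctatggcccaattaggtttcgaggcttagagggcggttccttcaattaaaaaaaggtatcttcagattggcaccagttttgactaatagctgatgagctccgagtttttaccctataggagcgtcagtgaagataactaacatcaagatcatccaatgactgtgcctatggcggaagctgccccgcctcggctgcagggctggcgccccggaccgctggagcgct
Ndufa1: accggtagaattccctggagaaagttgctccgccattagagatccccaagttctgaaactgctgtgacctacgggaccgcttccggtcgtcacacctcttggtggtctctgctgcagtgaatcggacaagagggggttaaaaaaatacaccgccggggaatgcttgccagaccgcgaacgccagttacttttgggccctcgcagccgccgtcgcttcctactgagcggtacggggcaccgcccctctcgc
In the Ndufa11 window the capitals are 2 overlapping NRF-1 matches. The NRF-1 letters were found in 5 of the 72 promoters (6.94%) against 0.849% of all 27457 rat promoters of the same length, the GABPA letters in 8 (11.1% against 3.29%) and the YY1 letters in 1 (1.39% against 0.382%). Any of the 3 was found in 14 of the 72 windows (19.4% against 4.39% of all). By the change from d 2 to d 16 described below, 4 of 15 promoters of genes that fell held a match, 0 of 5 of genes that rose and 10 of 48 of the other tested genes. These are matches of letters, and an absent match says only that these letters are not in the window.

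Respiratory chain transcripts were readily detected in whey. Of the 106 probes 97, standing for 79 genes, were detected (well above background with a processed signal over 20 on at least 1 whey array) against 41.1% of all non-control probes, and 90 were well above background on all 9 whey arrays against 23.9%. The 9 undetected probes covered Cox6b2, Cox6c1, Cox8b, Cox8c and Ndufaf2, each with no detected probe, and the weaker probes of Cox7c and Uqcrb. Cox6b2 and Cox8c are isoforms best known from testis, and Cox8b is a form of heart and skeletal muscle. Signals were tight within a day: the median SD on the log2 scale was 0.10 over the 90 members and 0.19 over all 9819 probes with the same detection. These sets were not matched on signal level, so the smaller spread is not read as particular to the members. Values below are log2 normalized signals, which compare one probe between arrays and not one gene with another. Where a gene had several probes, the one well above background on most arrays stands for it.

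Between d 2 and d 16 more members fell than rose, among them the catalytic beta subunit of ATP synthase (Atp5b), the core complex I subunits Ndufs1 and Ndufv1 and the complex III subunit Uqcrc1, on quantile-normalized arrays. By limma, 24 of the 97 probes differed at an adjusted p under 0.05 (24.7%, against 28.5% of all 16849 tested probes), a share close to the background. The split by direction was 19 lower (19.6%, against 12.4% of all tested probes) and 5 higher (5.15%, against 16% of all). The median change of the members was -0.15 on the log2 scale with all tested probes at 0.04, and turned to 0.39 with all tested probes at 0.59 when arrays were scaled to spike-in controls. Relative to all tested probes the members thus lay 0.19 lower by quantile normalization and 0.20 lower by spike-in or 75th percentile scaling, so that each rise and fall below is meant relative to the bulk of the array. With spike-in scaling limma called 0 members at d 16 and 10 of the 24 turned to the other sign, whereas normexp background correction called 39. The shares of all tested probes called in those fits are not given, so these counts are not read as particular to the members. The 3 arrays of one day lay wholly apart from those of the other for 43 members that were lower and 15 that were higher at d 16, and for 48.2% of all tested probes. The median change was below that of all tested probes in each dam, at -0.13 in dam 1, -0.09 in dam 2 and -0.23 in dam 3.

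**Figure D1:**
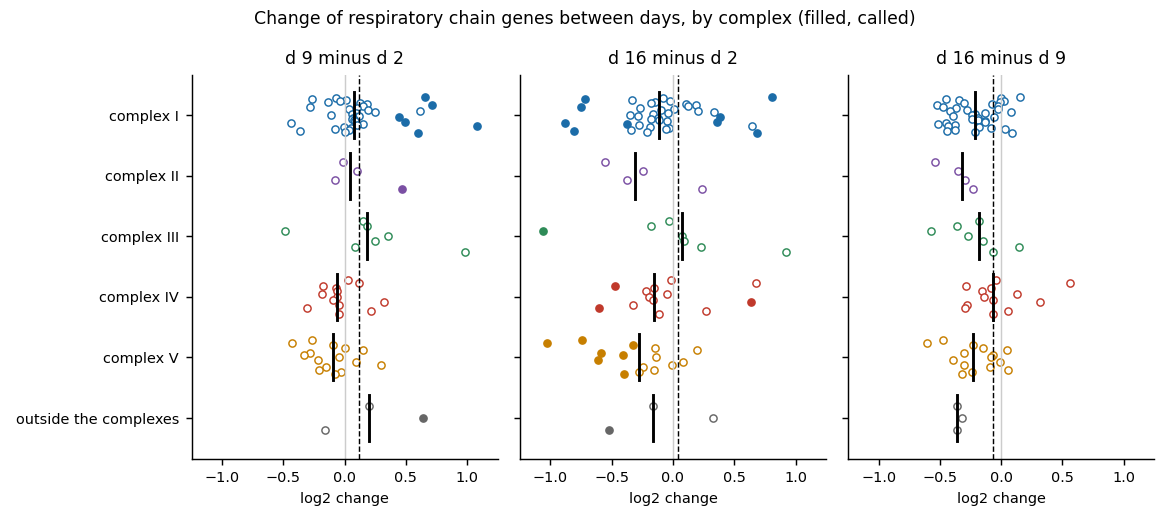
Log2 change between each pair of days (x axes) for 1 probe per gene, by complex (rows). Each point is a gene, filled where limma's adjusted p was under 0.05, black bars are complex medians and the dashed line is the median of all 16849 tested probes. Filled points lie at both ends of complex I in the middle panel but only at the low end of complex V. There 7 of 15 genes (46.7%, against 12.4% of all tested probes) fell on quantile-normalized arrays, and 5 fell with dam as a block. Spike-in scaling called 0 members and turned the sign of 10 of the 24 called ones. The share of all tested probes called in that fit is not given.

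By complex, with 1 probe per gene and relative to the quantile-normalized bulk of the array, 4 genes rose and 5 fell of 37 tested in complex I, 0 and 0 of 4 in complex II, 0 and 1 of 7 in complex III, 1 and 2 of 13 in complex IV, and 0 and 7 of 15 in complex V. With dam as a block the counts for complexes I to V were 4 and 4, 0 and 1, 0 and 1, 2 and 2, and 0 and 5. In complex II the unadjusted limma p was under 0.05 for 1 higher and 2 lower genes. What share of all tested probes reached that threshold is not given. Complex I here includes 3 tested assembly factors (Ndufaf1, Ndufaf3 and Ndufaf4), and complex IV includes the supercomplex factor Cox7a2l. The medians of complexes I to V in order were -0.11, -0.31, 0.08, -0.16 and -0.27. The shares of tested genes called in complexes I to V were 24.3%, 0%, 14.3%, 23.1% and 46.7%, against 28.5% of all tested probes. Differences between the complexes were not tested.

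In complex I the core and the accessory subunits gave different counts on quantile-normalized arrays, a difference that was not tested. Of the 7 core subunits, which carry the flavin and iron-sulfur centres, 3 fell (2 with dam as a block) and 0 rose. Ndufs3 and Ndufs8 had an unadjusted limma p under 0.05 without passing. Of 27 accessory subunits 4 rose and 2 fell. The called shares were 42.9% of the few core and 22.2% of the accessory subunits. Of all tested probes 28.5% were called, 16% higher and 12.4% lower, so the accessory share did not exceed that of the array. The core median was -0.34 and the accessory median -0.08.

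Ndufs1, the large iron-sulfur subunit, read 6.71, 6.93 and 6.94 at d 2 in dams 1 to 3, 6.29, 6.04 and 6.95 at d 9 and 6.29, 5.66 and 5.98 at d 16. The d 16 values all lay under the d 2 values, and dam 3 stood at its d 2 level on d 9. The change to d 16 was -0.88 ± 0.26 (SE, limma adjusted p = 0.0373), 1.85-fold lower. Ndufv1, which binds NADH and flavin, read 9.70, 9.77 and 9.89 at d 2, 9.32, 9.24 and 9.71 at d 9 and 8.97, 8.99 and 8.97 at d 16. Its d 16 arrays were nearly identical and lay under every earlier array. Relative to d 2 it had fallen by 0.81 ± 0.15 on the log2 scale (SE, limma adjusted p = 0.0063). Ndufs8, a ferredoxin-like subunit, had 3 probes. The representative probe changed by -0.34 (limma adjusted p = 0.0521) and did not pass, while the other 2 passed with -0.41 and -0.66. Ndufs3, Ndufs7 and Ndufv2, which are core subunits too, changed by -0.28, -0.05 and -0.21 and did not pass.

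The largest accessory falls were Ndufa9, -0.75 ± 0.13 (SE, limma adjusted p = 0.00617), and Ndufa11, -0.72 ± 0.11 (SE, limma adjusted p = 0.00295), both named here after their values were seen. Ndufa11, a membrane-arm subunit whose promoter with the paired NRF-1 letters is printed above, fell in steps from 9.92 ± 0.06 to 9.65 ± 0.09 and 9.20 ± 0.05 (SD, n = 3 a day), with no overlap between days. Ndufab1, the acyl carrier protein of mitochondria, changed by -0.27 (limma adjusted p = 0.123).

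Ndufa1, a small accessory subunit encoded on the X chromosome (probe at rn4 chrX:7727730-7727789), rose most of all called members at d 16. Its signal was 12.47, 12.50 and 12.69 at d 2, 13.10, 13.27 and 13.25 at d 9 and 13.34, 13.30 and 13.46 at d 16, with 12.76 in serum. Every d 9 and d 16 array was above every d 2 array, and the rise to d 16 was 0.81 ± 0.12 (SE, limma adjusted p = 0.00272), 1.75-fold. Ndufv3, an accessory partner of the flavoprotein (probe at rn4 chr20:9952677-9952736), read 11.21, 11.17 and 11.15 at d 2, 11.69, 11.82 and 11.80 at d 9 and 11.77, 11.90 and 11.91 at d 16. It rose by 0.68 ± 0.10 (SE, limma adjusted p = 0.00332), and again the d 2 arrays stood apart. The other accessory rises, named after their values were seen, were Ndufb5 (0.38) and Ndufc2 (0.36).

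**Figure D2:**
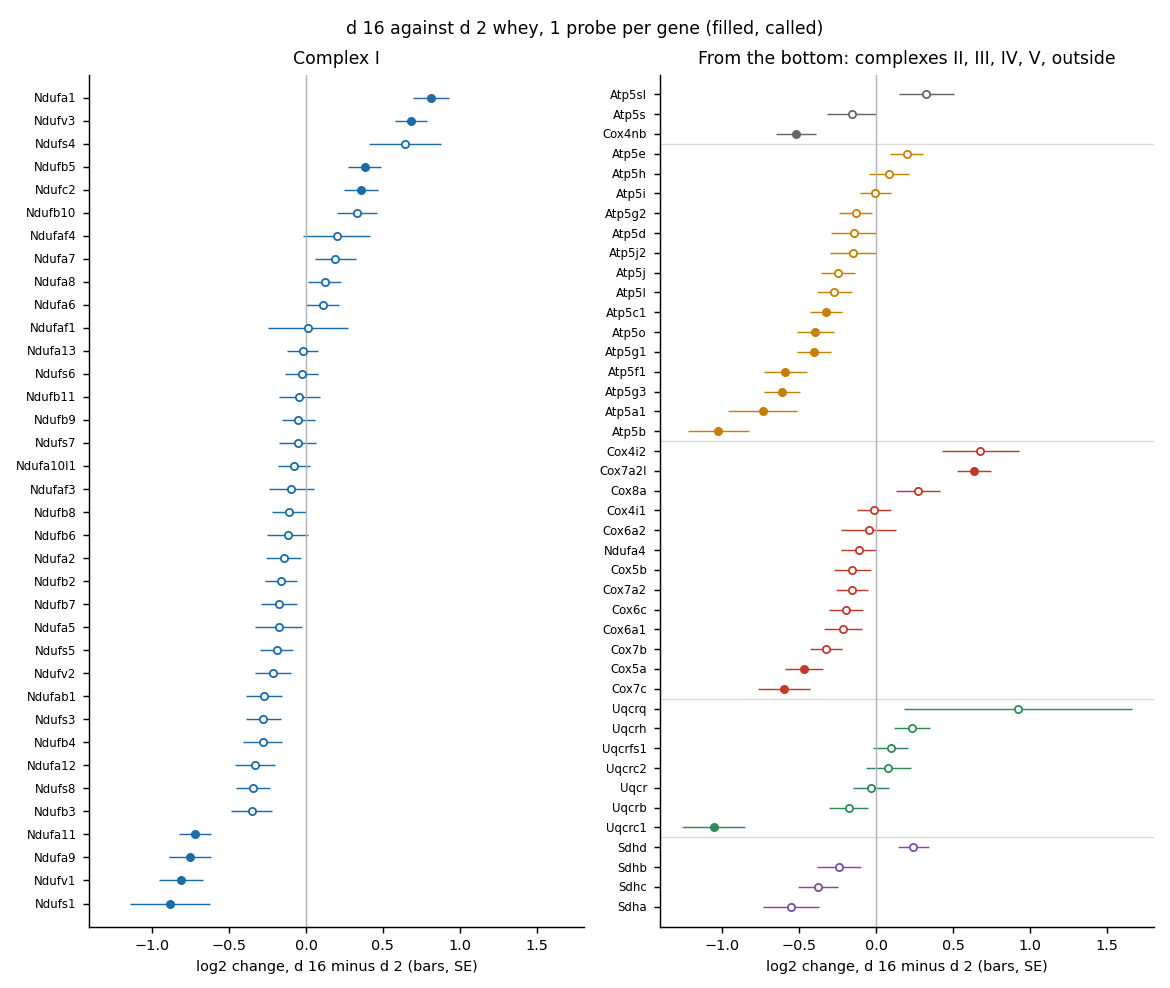
Log2 change from d 2 to d 16 (x axis) of the tested genes reported here with its SE, 1 probe per gene, complex I on the left and the other complexes on the right, filled where limma's adjusted p was under 0.05. The catalytic Atp5b and the core subunit Uqcrc1 lie near -1 and Ndufa1 at 0.81 (quantile-normalized arrays).

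Complex II, which also works in the tricarboxylic acid cycle, had 4 members. Sdha, the flavoprotein that oxidizes succinate, read 11.36, 11.65 and 11.80 at d 2, 11.53, 11.31 and 11.91 at d 9 and 10.97, 11.10 and 11.09 at d 16. All d 16 arrays were under all earlier ones. The difference of -0.55 ± 0.18 between d 16 and d 2 did not pass (SE, limma adjusted p = 0.0566), although it did with dam as a block (limma adjusted p = 0.0471). Sdhb, the iron-sulfur subunit, changed by -0.25 and the membrane anchor Sdhc by -0.38 (limma adjusted p = 0.234 and 0.0646). Sdhd, the other membrane anchor, moved the other way, from 11.19 ± 0.06 at d 2 to 11.66 ± 0.05 at d 9 and 11.43 ± 0.04 at d 16 (SD, n = 3). It passed at d 9 (0.47 ± 0.10, SE, limma adjusted p = 0.0188) and not at d 16 (limma adjusted p = 0.111).

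In complex III a single gene passed. Uqcrc1, a core scaffold protein of the complex (probe at rn4 chr8:113961444-113961503), read 8.22, 8.29 and 8.43 at d 2, 7.77, 7.58 and 8.12 at d 9 and 7.62, 6.98 and 7.15 at d 16, with 7.20 in serum. Days did not overlap between d 2 and d 9 or d 16, and the fall to d 16 was the largest of all tested members at -1.06 ± 0.20 (SE, limma adjusted p = 0.00833), 2.08-fold. Its partner Uqcrc2 (0.08), the Rieske iron-sulfur protein Uqcrfs1 (0.09) and Uqcrb (-0.18) did not pass. The other detected Uqcrb probes, weaker but well above background on all 9 whey arrays, changed by 0.10 and 0.09 without passing. Uqcrq rested on 1 of 9 whey arrays above background, so no size is given for it.

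In complex IV 1 gene rose and 2 fell at d 16, on quantile-normalized arrays. Cox4i1, the ubiquitous form of subunit 4, read 10.81 ± 0.05, 10.83 ± 0.14 and 10.79 ± 0.05 on d 2, d 9 and d 16 (SD, n = 3), a change of -0.02 ± 0.11. Cox5a fell by 0.47 on the log2 scale (limma adjusted p = 0.0248) and Cox7c by 0.60 (limma adjusted p = 0.031). A weaker second probe of Cox5a changed by -0.82 and did not pass (limma adjusted p = 0.0678). Cox5b, Cox6a1, Cox7a2 and Ndufa4 (now counted as a complex IV subunit) changed by -0.16, -0.22, -0.16 and -0.11, and Cox8a by 0.27, none of which passed. Cox7a2l, which joins complexes III and IV into supercomplexes, read 9.61, 9.71 and 9.60 at d 2, 9.97, 9.90 and 10.01 at d 9 and 10.32, 10.15 and 10.36 at d 16. The 3 days did not overlap, and the rise to d 16 was 0.63 ± 0.11 (SE, limma adjusted p = 0.00543).

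In ATP synthase 7 genes fell at d 16 and 0 rose on quantile-normalized arrays (5 fell with dam as a block), and 1 further gene was lower at an unadjusted limma p under 0.05. Of 5 subunits of the F1 head and stalk 3 fell, and of 10 membrane and peripheral stalk subunits 4 fell. Among all tested probes 12.4% were lower. Atp5b (now Atp5f1b), the catalytic beta subunit (probe at rn4 chr7:1378451-1378510), read 10.84, 10.88 and 10.98 at d 2, 10.57, 10.13 and 10.72 at d 9 and 10.18, 9.61 and 9.83 at d 16. Every d 16 array was under every d 2 array, and the change was -1.03 ± 0.20 (SE, limma adjusted p = 0.00845), 2.04-fold lower. Atp5a1 (now Atp5f1a), the alpha subunit that alternates with beta in the head, read 11.34, 11.47 and 11.51 at d 2, 11.32, 10.79 and 11.41 at d 9 and 11.07, 10.39 and 10.64 at d 16. It changed by -0.74 ± 0.22 (SE, limma adjusted p = 0.0411), and dam 2 was the lowest array on both later days, as it was on each of those days for Atp5b, Ndufs1 and Uqcrc1. Atp5c1, the gamma stalk, fell by 0.33 on the log2 scale (limma adjusted p = 0.0466, and 0.0601 with dam as a block). The small subunits of the head and stalk group did not pass, Atp5d at -0.15 and Atp5e at 0.20.

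The proton-carrying c-ring subunit is one protein made from 3 genes. Atp5g1 fell by 0.40 (limma adjusted p = 0.0281) and Atp5g3 by 0.61 (limma adjusted p = 0.00787) on the log2 scale, while Atp5g2 changed by -0.14 (limma adjusted p = 0.364). The representative Atp5g3 probe read 13.10, 13.13 and 13.10 at d 2, 12.78, 12.93 and 12.96 at d 9 and 12.43, 12.66 and 12.39 at d 16, in a descent without overlap. A second Atp5g3 probe also fell (-0.52, limma adjusted p = 0.00991) and the third changed by -0.34 without passing (limma adjusted p = 0.0643). The peripheral stalk genes Atp5f1 and Atp5o, named after their values were seen, fell by 0.59 and 0.40, the latter without passing when dam was a block (limma adjusted p = 0.0528).

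**Figure D3:**
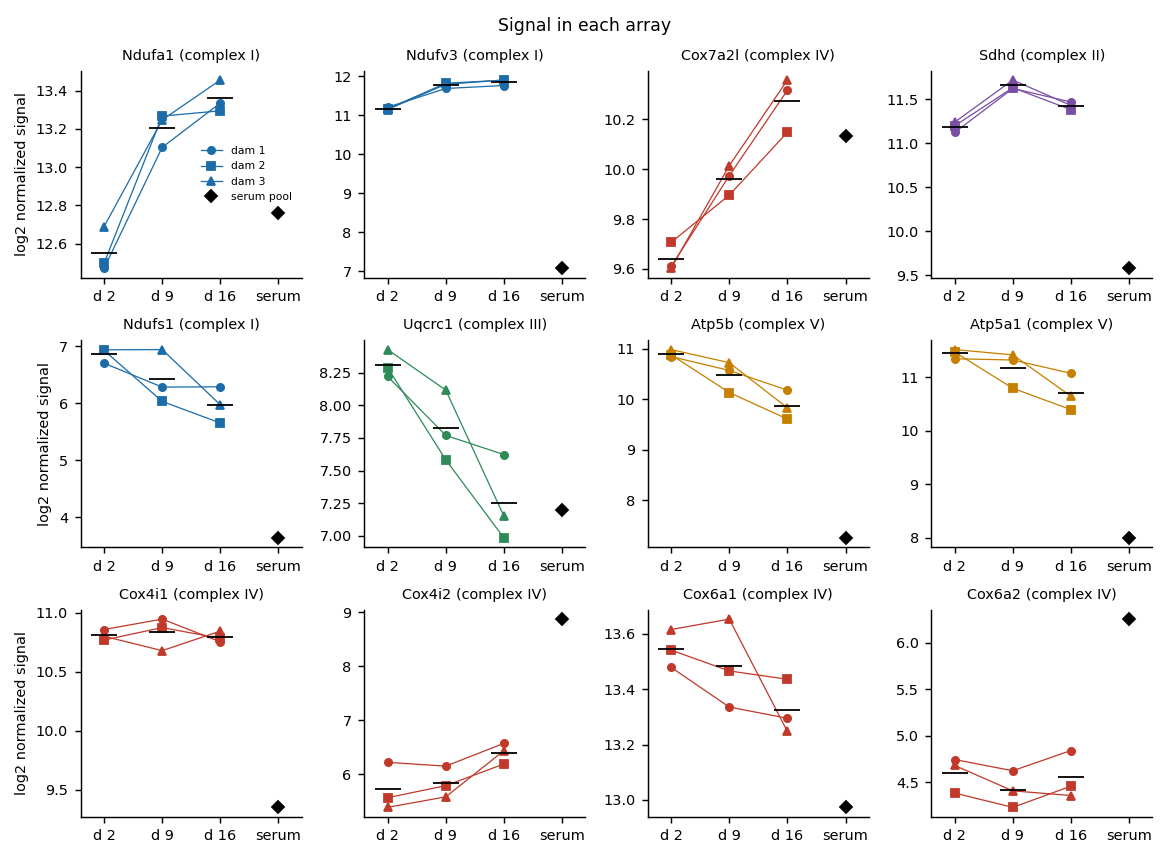
Log2 normalized signal (y axes, each on its own range) of 12 members in every array. Coloured points joined by lines are the 3 dams over d 2, d 9 and d 16, bars are day means and black diamonds are the serum pool. Ndufa1, Ndufv3 and Cox7a2l are above their d 2 values on both later days, Uqcrc1 and Atp5b are below them, Cox4i1 is level, and serum lies above every whey array for Cox4i2 and Cox6a2 on quantile-normalized arrays.

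From d 2 to d 9, 8 of the 97 probes rose and 0 fell (8.25%, against 17.6% of all tested probes by limma, 11.3% higher and 6.36% lower). The 3 arrays of one day lay wholly apart from those of the other for 18 higher and 10 lower members and for 38.8% of all tested probes. At an unadjusted limma p under 0.05 the counts were 13 higher and 5 lower, and spike-in scaling called 24. By quantile normalization the median change was 0.05 with all tested probes at 0.11. By spike-in scaling it was 1.50 with all tested probes at 1.52. The 8 were Ndufa1 (0.65), Ndufv3 (0.60), Ndufb5 (0.44), Ndufc2 (0.49), Ndufa7 (0.71), Sdhd (0.47) and Atp5sl (0.64), with Ndufs4 as the last. Of the 8, 6 belonged to complex I, which held 47 of the 97 tested probes. All 6 were accessory subunits, Ndufs4 among them, and accessory subunits made up 27 of the 79 tested genes. The make-up of the 8 was not tested. Ndufa7, a small accessory subunit, peaked on d 9 with 6.49, 6.69 and 6.88, against 5.84 to 6.09 at d 2 and 6.17, 6.16 and 6.17 at d 16. Ndufs4, whose loss is known for severe complex I deficiency, was above background on 0 of 3 d 2 arrays and 1 of 3 d 9 arrays, so its call rests on signals mostly below background and no size is given. The count ran from 3 to 9 when single arrays were left out, with 4 without d 2 whey of dam 2 and 3 without d 9 whey of dam 2. Shares of all tested probes in those fits, under spike-in scaling and at an unadjusted p are not given. These counts are thus not read as particular to the members. With slide as a fixed block, which leaves only d 2 whey of dam 3 and the d 9 arrays to compare within a slide, limma called 0, with 4 higher and 0 lower at an unadjusted p under 0.05. Within that slide d 9 minus d 2 was 0.52 for Ndufa1, 0.62 for Ndufv3 and 0.42 for Sdhd. Markers differed between these days as well. Of 4 epithelial probes 3 were lower at d 9, with a sum of 11248 to 14390 at d 2 and 5789 to 7851 at d 9. Of 5 milk protein probes 0 were called, and their sums overlapped (685806 to 723895 and 666466 to 907886). Of 6 tested macrophage probes 4 were higher and 2 lower, and the sums of that list overlapped too (313 to 445 and 234 to 567). The 1 tested erythroid probe and 1 of 3 striated muscle probes were higher. Neutrophil, lymphocyte, platelet and adipocyte lists had 0 called. The part of these shifts in the d 9 rises was not tested.

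Between d 9 and d 16, 1 of 97 probes differed (1.03%, against 1.42% of all tested probes by limma, 0.564% higher and 0.855% lower). The 3 arrays of one day lay wholly apart from those of the other for 40 lower and 3 higher members and for 29.3% of all tested probes. It was the second Atp5g3 probe, which went from 10.18, 10.13 and 10.26 to a d 16 mean of 9.59 ± 0.10 (SD, n = 3; change -0.60 ± 0.11, SE, limma adjusted p = 0.0449, and 0.0856 with dam as a block). At an unadjusted limma p under 0.05, 25 probes were lower and 1 higher. The count of called members was 21 after normexp background correction, 5 with a minimum signal of 100 and 4 among probes above background on all 9 whey arrays. The members' median was -0.21 with all tested probes at -0.06. By the limma F test for any difference among days, 20 of 97 passed (against 25.6% of all tested probes), with 43 after normexp, 2 under spike-in scaling and 4 without d 16 whey of dam 3. For the unadjusted counts and the alternative fits, shares of all tested probes are not given. Those counts are thus not read as particular to the members.

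The number of members called at d 16 moved when single arrays were left out, from 10 to 28. Without d 2 whey of dam 2 limma called 10 of the members in place of 24, without d 2 whey of dam 3 it called 12, and without d 16 whey of dam 1, 2 or 3 it called 14, 12 and 10. Shares of all tested probes in these fits and in the slide fit below are not given. The drops are thus not read as particular to the members. All d 16 arrays and the serum array shared a slide scanned on a later day, so d 16 and that slide cannot be told apart in the whey arrays. Slide as a random block (estimated correlation -0.08) does not separate them either, and called 32. Brightness moved with the days too: the 75th percentile signal was 12.5, 20.2 and 28.0 on the d 2 arrays, 21.2, 41.8 and 83.2 on the d 9 arrays and 21.5, 40.6 and 34.4 on the d 16 arrays. The part of slide and brightness in these changes was not tested. Marker levels also shifted. The summed signal of 5 milk protein probes was 685806 to 723895 at d 2 and 1017200 to 1129370 at d 16, and 4 of the 5 rose. Of 4 epithelial probes 2 fell (Krt8 and Krt18), and their sum went from 11248 to 14390 at d 2 down to 7620 to 8911 at d 16. Of 6 tested macrophage probes 4 rose and 2 (both Cd14) fell, Csf1r was not well above background, and the sum of all 9 went from 313 to 445 at d 2 up to 729 to 815. From d 2 to d 16 the sum of the erythroid list went from a range of 52.9 to 80.3 up to 184 to 295, that of the lymphocyte list from 24.3 to 40.9 up to 64.1 to 104 and that of the striated muscle list from 55.5 to 76.8 up to 166 to 210 (2 of 3 tested probes called higher). The platelet sum went from 39.8 to 55.8 down to 11.1 to 23.9. The part of these shifts in the members' changes was not tested.

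The rule also took in 3 names of genes outside the complexes, besides the assembly factors and Cox7a2l counted with complexes I and IV. Cox4nb (now Emc8), a neighbour of the Cox4 gene that works in the endoplasmic reticulum, fell by 0.52 at d 16 (limma adjusted p = 0.0218). Atp5sl (now Dmac2), a factor tied to complex I assembly, rose at d 9 with its better probe only (limma adjusted p = 0.0453), the other changing by 0.14. Atp5s changed by -0.16 from d 2 to d 16 without passing.

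The other mitochondrial lists gave the following counts for d 16 against d 2, chosen like the members with earlier results known. Of all tested probes 28.5% were called, 16% higher and 12.4% lower. In the tricarboxylic acid cycle, which feeds the chain with NADH and succinate, 9 of 24 probes fell and 1 rose (median -0.35). Mdh2 (-0.68) and all 3 probes of Fh1 (-0.54 to -0.99) fell, while Pdha1, the pyruvate dehydrogenase subunit that admits carbon to the cycle, rose by 0.75. Among carriers and pores 3 of 18 rose and 3 fell. The 3 rises were the 3 probes of Vdac1, the outer membrane pore (1.12 to 2.36), and cytochrome c (Cycs) changed by -0.14 to -0.33 over 3 probes without passing. Assembly factors gave 1 rise and 5 falls of 23, import 2 and 7 of 23 and the mitochondrial ribosome 8 and 12 of 79. The called shares were 41.7% for the tricarboxylic acid cycle, 39.1% for import and 33.3% for carriers and pores. They were 26.1% for assembly factors and 25.3% for the mitochondrial ribosome, close to that of all tested probes. Differences from all tested probes were not tested. Of 13 tested probes for regulators of mitochondrial biogenesis 1 rose (Tfb2m, 0.60) and 0 fell (7.69% called). Gabpa changed by -0.58 (limma adjusted p = 0.095), Nrf1, the gene of NRF-1, by 0.02, and Ppargc1a was not detected in whey.

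**Figure D4:**
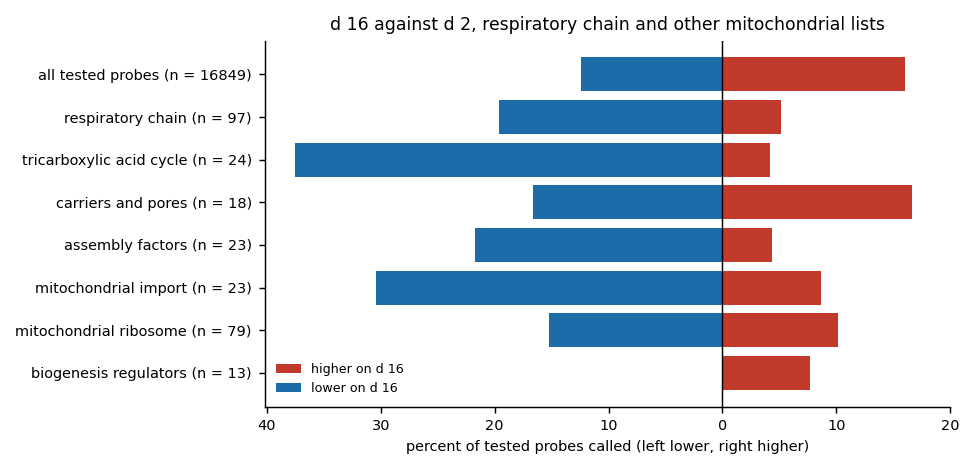
Percent of tested probes called by limma for d 16 against d 2 (x axis, lower to the left and higher to the right) in the respiratory chain and 6 other mitochondrial lists, with all 16849 tested probes on top. On quantile-normalized arrays the respiratory chain has 19.6% lower and 5.15% higher, against 12.4% and 16% of all tested probes. Spike-in scaling called 0 of its members, and the share of all tested probes called in that fit is not given.

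Most members gave a higher normalized signal in whey than in serum. On the serum array 77 of the 106 probes were well above background against 15% of all probes, and 76 were well above background on all 10 arrays. Of those 76, 29 were more than 4-fold higher in the mean of the whey arrays (against 8.7% of the 4633 probes with the same detection) and 1 was more than 4-fold higher in serum (against 17.4%). The count of 29 became 56 by the 75th percentile, 74 by spike-in scaling and 19 by normexp, and the 1 became 0 in each. In these the log2 median of all probes with that detection was 0.89, 3.70 and 0.14. By spike-in scaling the median probe of the array was thus itself over 4-fold higher in whey. Shares of all probes over 4-fold are given for quantile normalization only. The median difference of whey over serum was 1.72 for members and 0.16 for all probes with that detection. By complex the medians were 1.75, 2.42, 1.69, 1.04 and 1.55 for complexes I to V, with 1 probe per gene. Scaled to spike-in controls the same medians were 5.30 and 3.70, so the gap between members and all probes was about the same by that scaling. No test was possible with 1 serum array, whose 75th percentile signal was 4.11 against 12.5 to 83.2 in whey.

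The members highest in whey over serum included Ndufv3 (11.6 ± 0.33 over the 9 whey arrays, SD, against 7.08, 23.0-fold), Ndufs8 (9.96-fold), Atp5c1 (9.26-fold) and Atp5b (8.91-fold). Of these, Ndufs8 is a core subunit of complex I, and Atp5c1 and Atp5b belong to the F1 part of ATP synthase. The smallest differences included Ndufa1 (1.21-fold) and Cox6a1 (1.39-fold).

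In serum the isoform pairs of complex IV read differently. Cox4i2, the form of subunit 4 known from lung and from low oxygen, read 5.39 to 6.58 on the whey arrays and 8.88 in serum (7.39-fold higher in serum), whereas its ubiquitous counterpart Cox4i1 was 2.75-fold higher in whey. Cox6a2, the heart and skeletal muscle form of subunit 6a, read 4.23 to 4.84 in whey and 6.25 in serum (3.31-fold higher in serum), whereas Cox6a1 was higher in whey. Cox8b, the muscle form of subunit 8, was well above background on 8 of 9 whey arrays at 2.37 to 4.65 and read 7.25 in serum, and Cox8a was 4.12-fold higher in whey. Serum exceeded whey in 3 of the 76 probes (against 46.3% of all such probes), the third being Cox7a2l at -0.18 (whey minus serum). Under spike-in scaling whey was above serum for Cox4i2, Cox6a2 and Cox7a2l (0.83, 1.57 and 3.50), and Cox8b stayed below (-0.32). Among striated muscle markers 1 of 6 probes, Ckm, was well above background in serum, and the summed signal of the list was 86.7 there, against 55.5 to 210 in whey. The adipocyte list had 1 of 2 probes (Adipoq) and the erythroid list 4 of 4 above background in serum, with sums of 170 and 502587. Platelet markers summed to 70948 in serum (2 of 2 probes above background) against 11.1 to 55.8 in whey, and neutrophil markers to 9790 (4 of 6) against 20.1 to 406. Liver markers summed to 675 (2 of 6) against at most 19.0, and lymphocyte markers to 950 (1 of 4) against 24.3 to 104. The part of these cell types in the serum levels was not tested.

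**Figure D5:**
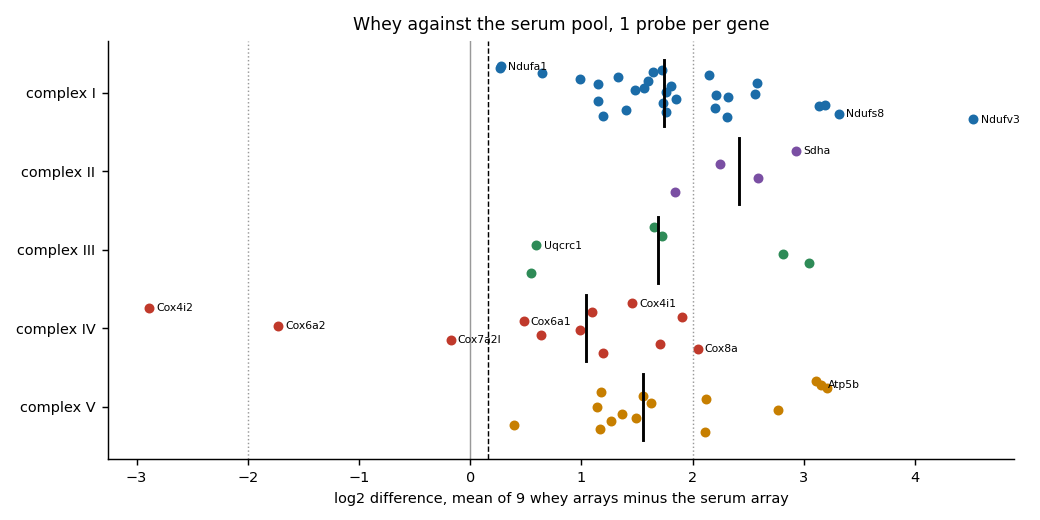
Log2 difference of the mean of 9 whey arrays minus the serum array (x axis) for the 67 genes whose probe was well above background on all 10 arrays, by complex. Black bars are complex medians, the dashed line is the median of all 4633 such probes and dotted lines mark 4-fold. Only Cox4i2, Cox6a2 and Cox7a2l lie left of 0 on these quantile-normalized arrays, and under spike-in scaling none of the members does.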

How the data were processed

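The 10 arrays were one-colour Agilent Whole Rat Genome arrays, labelled by the authors from 100 ng RNA. The deposited values are spot intensity values on a linear scale from Feature Extraction 9.5.3.1, background-subtracted and not normalized between arrays. Outlier spots were dropped and spots of a probe averaged. Following the study's methods, log2 intensity was quantile-normalized over all 10 arrays, and 16849 detected probes were fitted over the 9 whey arrays with limma 3.58.1 (R 4.3.3), adjusting by Benjamini-Hochberg over all of them. Groups and dam numbers came from sample titles. The deposited flags (well above background, outlier) are other values, and 10 deposited columns of normalized log2 values matched no sample label and were not used. Dam numbers mark the same animal. Same-dam deviations correlated from -0.02 to 0.22 and those of different dams from -0.25 to 0.16. The number of arrays limits precision. Probe positions are those of rn4 in the files, and exon or UTR annotation was not used. Named genes followed a rule by role and by largest change. The values of 1 member gene are not reported here, and it stays in the counts. Members, lists and that rule were chosen with earlier results of these data known. Alternatives were other scalings, filters and backgrounds, blocks for dam and slide, the methods' Tukey-Kramer test, 2-day fits and each array left out.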

Additional observations from a re-analysis of the deposited data

How the results depend on the processing

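The counts of members called moved as follows, in the order d 9 against d 2 (8), d 16 against d 2 (24), d 16 against d 9 (1) and F (20). Spike-in scaling gave 24, 0, 0 and 2, with the median of all tested probes at 1.52 and 0.59 for d 9 and d 16 against d 2, and 10 of the 24 d 16 members changed sign there, including Cox5a (0.090), Atp5c1 (0.14), Atp5g1 (0.13), Atp5g3 (0.015), Cox7c (0.0029) and Cox4nb (0.029). Relative to the median of all tested probes all 24 kept their side under each of the 4 other scalings and backgrounds. Normexp gave 39, 21 and 43 for the last 3 counts. For d 16 against d 9 and F, probes above background on all 9 arrays gave 4 and 34 and a minimum signal of 100 gave 5 and 34. For d 16 against d 9, slide as a random block gave 4, and the 75th percentile, dam as a replicate block, the Tukey-Kramer test and a 2-day fit gave 0. For d 9 against d 2, the 2-day fit gave 3 and slide as a fixed block 0. Leaving out 1 array gave 3 to 9, 10 to 28, 0 to 0 and 4 to 19, the F count falling to 4 without d 16 whey of dam 3 and to 9 without dam 2 of d 2 or d 16. With dam as a replicate block the counts were 8, 23, 0 and 16: those that no longer passed for d 16 against d 2 included Atp5c1, Atp5o and 1 Ndufs8 probe, and Cox4i2, Sdha and the weaker Cox5a probe passed. Members over 4-fold higher in whey than in serum numbered 29 by quantile normalization, 56 by the 75th percentile, 74 by spike-in scaling and 19 by normexp. The log2 median of all probes well above background on all 10 arrays was 0.16, 0.89, 3.70 and 0.14 in that order. Those over 4-fold higher in serum numbered 1, then 0, 0 and 0, and 2 when detection on any array sufficed. Leaving out 1 array gave 29 to 29 and 1 to 2. Signal over background limits Ndufs4 and Uqcrq, each above background on 1 whey array. Shares of all tested probes called under these alternatives are not given, so the shifts are not read as particular to the members. The cause of these shifts was not tested.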
